A study of Mus musculus with 3 samples.

Results

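The genes described here are 10 regulators of exit from the cell cycle, out of 46316 gene symbols in the deposited tables. They were chosen by name: the inhibitors of cyclin-dependent kinases (CDKs) Cdkn1a, Cdkn1b, Cdkn1c and Cdkn2c, the pocket proteins Rb1, Rbl1 and Rbl2, and the cyclin D genes Ccnd1 and Ccnd3 with their kinase gene Cdk4. Each gene was read from its transcript with the highest count over the 3 libraries. RNA came from C2C12, an established line of immortalized mouse myoblasts, taken 4 days after differentiation was started in all 3 libraries. One library, called WT here, came from wild-type cells. The second, KO, carries the label Drp1-KO, Drp1 being the dynamin-like GTPase of mitochondrial fission. The third, called rescue, came from Drp1-KO cells made to express FLAG-tagged Drp1 transiently. There was 1 library per group. The sources used here do not say how the knockout was made or whether it is 1 clone. The comparisons ask which of these genes differ between KO and WT, and where the rescue library lies relative to them.

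Myoblasts must leave the cell cycle before they fuse into myotubes. In a dividing cell, cyclin D with CDK4 or CDK6 phosphorylates the pocket proteins, which releases E2F transcription factors to switch on the genes of DNA replication. During muscle differentiation CDK inhibitors accumulate, the pocket proteins stay underphosphorylated, and the E2F target genes are kept off. All of these regulators are also controlled as proteins, by phosphorylation and degradation, which RNA counts do not show.

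Summed over genes, the libraries held 13894114 (WT), 13790417 (KO) and 13925296 (rescue) counts. Dnm1l, the gene of Drp1, had 1823, 1284 and 1481 counts in WT, KO and rescue, so its RNA was still present in the library labelled KO and does not settle that label. All 12 myotube markers examined had counts in each library, with summed levels of 18723 CPM (counts scaled to the effective library size) in WT, 18321 in KO and 23235 in the rescue library. The KO library also stood apart from both others by transcript length. Among protein-coding genes with at least 100 counts in all, the decile of shortest transcripts stood at a median log2 KO/WT ratio of -0.21 and the decile of longest transcripts at 0.20. In rescue against KO these medians were 0.23 and -0.20. Since each group is a single library, differences have no replicate check, and no test between conditions was possible. The intervals given are 95% counting intervals, which cover counting error only. In RNA from a whole culture, fewer cells that express a gene and less RNA per cell cannot be told apart.

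In KO against WT, the inhibitor Cdkn2c was 2.44-fold lower, and Ccnd1, Rbl1 and Cdkn1a were 1.67-fold, 1.60-fold and 1.59-fold lower. Rb1 and Cdkn1b were 1.21-fold and 1.18-fold higher. Of the 10 genes, 9 reached a mean of 1 CPM, and Cdkn1c did not. One of the 9, Cdkn2c, was at least 2-fold lower in KO, beside 4.07% of the 13381 genes that reached 1 CPM, and 0 were at least 2-fold higher, beside 5.35%. At a threshold of 1.5-fold, added after the data were seen, 4 of the 9 were lower, beside 10.4% of all genes, and 0 were higher, beside 12.1%. Cdkn1a was among the 4, but with the length trend removed its log2 ratio, -0.577, fell short of 1.5-fold. Among the 9203 genes with 200 or more counts in the higher library, a background nearer in depth that was also added after the data were seen, 2.94% were at least 2-fold higher and 1.93% lower, and 8.15% and 6.91% at 1.5-fold. The median log2 ratio of the 9 was -0.33, and that of all 13381 genes was 0.00.

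The levels spanned a wide range. Counted per kilobase of transcript, Cdkn1a stood at the top in each library, with 809.9 CPM per kilobase in WT, 510.2 in KO and 623.4 in rescue. Only 55 of the 13381 genes had a higher value in WT, 105 in KO and 96 in rescue. Ccnd3 came next (238.4, 205.8 and 224.9 CPM per kilobase), then Cdk4 (184.5, 147.2 and 158.2). Cdkn1b and Rb1 followed at 34.2 to 42.7 CPM per kilobase, and their counting intervals could not be separated in WT or KO. In WT, Rb1 and Ccnd1 (32.6) could not be separated either, while in KO and rescue Ccnd1 lay clearly below Rb1, at 19.6 and 18.5. Cdkn2c and Rbl2 were level in WT (12.2 and 11.6 CPM per kilobase), but in KO and rescue Cdkn2c (4.98 and 6.63) lay below Rbl2 (10.6 and 10.4). Rbl1 was the lowest of the 9 in each library, with 5.74, 3.59 and 3.43 CPM per kilobase.

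**Figure D1:**
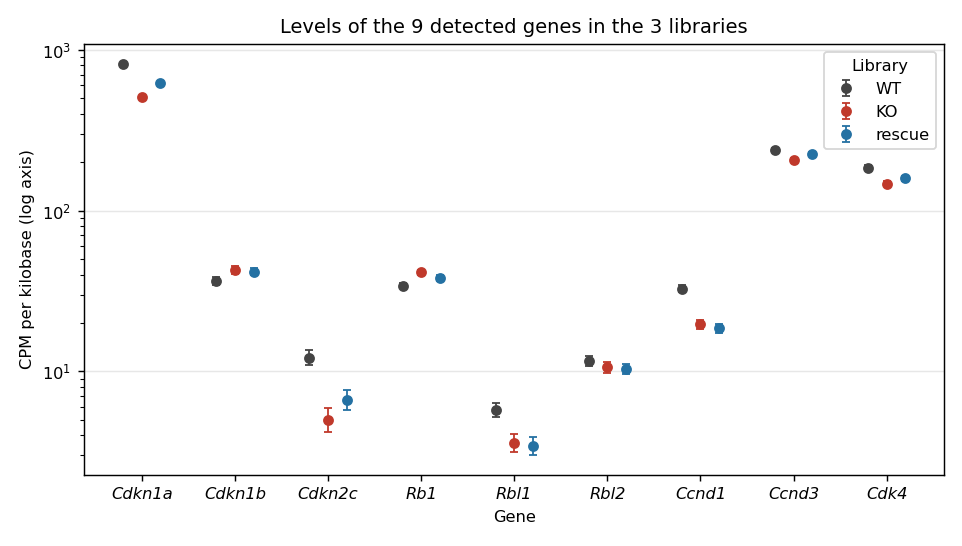
Level of each of the 9 detected genes in CPM per kilobase of transcript, on a log axis, in the WT, KO and rescue libraries; points are single libraries and bars are 95% counting intervals. Cdkn1a lies highest in each library and Rbl1 lowest, and the WT points of Cdkn1a, Cdkn2c, Rbl1 and Ccnd1 lie above both other libraries.

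Cdkn1a encodes p21, an inhibitor of the Cip/Kip family that MyoD and p53 can both induce and that is a classical marker of myoblasts that have stopped dividing. It had 21758 counts (WT), 13468 (KO) and 16422 (rescue). WT was the highest library and rescue lay between the others. The log2 ratio of KO against WT was -0.67 (interval -0.70 to -0.64), that of rescue against KO was 0.29 (0.26 to 0.32), and that of rescue against WT was -0.38 (-0.41 to -0.35). Its transcript is short, and with the trend by transcript length removed the ratios were -0.58, 0.20 and -0.38. Both transcript variants in the tables had nearly equal counts, and their ratios of KO against WT were -0.67 each.

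Promoter sequence was matched for 7 of the 10 genes in a RefSeq table of build GRCm38.p6, which is an older build than the GRCm39 of the deposited tables. Cdkn1c, Rb1 and Ccnd1 had no window there. The sequences are shown for Cdkn1a, Cdkn2c, Rbl1 and Cdk4, all of them lower in KO than in WT. Each full window ends at the base before the start of a RefSeq transcript. Letter matches describe these windows and do not show that a factor binds there. The Cdkn1a window is that of transcript variant 1, the transcript used for its counts, at chr17:29093519-29093768 on the plus strand. Capitals mark the E-box CANNTG, the letters bound by MyoD and related factors, searched on both strands. The window holds 1 match, CAGGTG, 187 to 182 bases before the start. Such a match was present in 66.2% of all 32851 promoter windows of 250 bases. The window of transcript variant 2, at chr17:29090729-29090978 on the plus strand, holds 0 matches and is not shown.
Cdkn1a variant 1: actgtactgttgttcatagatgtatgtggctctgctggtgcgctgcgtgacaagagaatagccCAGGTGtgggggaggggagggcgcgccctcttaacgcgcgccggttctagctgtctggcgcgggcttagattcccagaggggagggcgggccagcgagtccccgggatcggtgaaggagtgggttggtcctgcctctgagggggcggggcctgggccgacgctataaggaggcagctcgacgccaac

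Cdkn1b encodes p27, the second Cip/Kip inhibitor, which accumulates in resting cells mainly through slower degradation of the protein. It had 1225 counts (WT), 1416 (KO) and 1379 (rescue). WT was the lowest library, and KO and rescue could not be separated by counting error. The log2 ratio was 0.23 in KO against WT (interval 0.12 to 0.35), -0.04 in rescue against KO (-0.14 to 0.07) and 0.20 in rescue against WT (0.09 to 0.31). Cdkn1a and Cdkn1b therefore differed from WT in opposite directions in both other libraries. The level of Cdkn1a per kilobase was 22.3 times that of Cdkn1b in WT (interval 21.1 to 23.7), 12.0 times in KO (11.3 to 12.6) and 15.0 times in rescue (14.2 to 15.8).

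Cdkn1c encodes p57, the third member of the family, which is expressed from the maternal chromosome in the imprinted Kcnq1 domain and is abundant in embryonic muscle. It had 1 count in WT, 0 in KO and 0 in rescue, so it was at or below the detection floor in each library. A count of 0 allows a level of up to 0.217 CPM in KO and 0.218 CPM in rescue. No ratio is given for it. Kcnq1ot1, the long noncoding RNA of the paternal chromosome that silences genes of this domain, had 185, 192 and 162 counts in WT, KO and rescue, with a log2 ratio of 0.08 in KO against WT (interval -0.22 to 0.38). Its row covers the whole unspliced transcript and lies antisense to Kcnq1, and without a stated strand setting reads from the 2 genes cannot be told apart. Of the 10 neighbours listed from this domain, 5 reached 1 CPM: Kcnq1ot1, Cd81, Nap1l4, Tssc4 and Tspan32. None of these was 2-fold different in any comparison. The shares of all genes ran from 0.575% to 5.35% per direction and comparison, so 0 of 5 lies near them. Tspan32 stood at 586 counts (WT), 586 (KO) and 909 (rescue). The other 5, Kcnq1, Slc22a18, Phlda2, Ascl2 and Trpm5, named after their values were seen, had between 0 and 4 counts.

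Cdkn2c encodes p18, an inhibitor of the INK4 family that binds CDK4 and CDK6 and blocks their pairing with cyclin D. It had 348 counts (WT), 140 (KO) and 186 (rescue), with WT clearly highest. The log2 ratio was -1.29 in KO against WT (interval -1.58 to -1.001), 0.41 in rescue against KO (0.09 to 0.74) and -0.87 in rescue against WT (-1.14 to -0.61). No other gene of the 9 reached a 2-fold difference in any of the 3 comparisons, and none of the alternatives tried moved it to the other side of that threshold. In the small set of INK4 genes outside the chosen 10, Cdkn2d (p19) had 268, 196 and 246 counts in WT, KO and rescue, a log2 ratio of -0.42 in KO against WT (interval -0.70 to -0.15). Cdkn2a and Cdkn2b had 0 counts in every library.

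The tables list 2 transcript variants of Cdkn2c that start at different places. Variant 1 had 348, 140 and 186 counts in WT, KO and rescue, and variant 2 had 222, 98 and 136. The rows overlap and share reads, so they are not independent. The variant 2 row was also lower in KO, with a log2 ratio of -1.15 (interval -1.51 to -0.81). The counts of the variant 1 row beyond those of variant 2 were 126 in WT, 42 in KO and 50 in rescue, or 36.2%, 30% and 26.9% of the variant 1 row. The log2 ratio of that difference was -1.55 in KO against WT (interval -2.10 to -1.05), an interval that includes the ratio of either row.

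Both Cdkn2c starts have a window in the promoter table, and they differ in base composition. The window of the upstream start is 77.2% G and C and holds 1 match to the letters bound by E2F factors, TTCCCGC, at 25 to 19 bases before the RefSeq start. The search took both strands and 4 spellings: TTCCCGC was one, the second was TTGGCGC, the third was TTCGCGC and the last was TTGCCGC. GENCODE annotation of the same build places that stretch in the first exon of variant 1, so only 30 bases around the match are shown, at chr4:109666764-109666793 on the minus strand. The window of variant 2, at chr4:109665373-109665622 on the minus strand, is 42.8% G and C and holds 0 matches. Any of these letters were present in 7.89% of all promoter windows, and capitals mark them.
Cdkn2c upstream stretch: cggggcccggccTTCCCGCtcccgcggcgc
Cdkn2c variant 2: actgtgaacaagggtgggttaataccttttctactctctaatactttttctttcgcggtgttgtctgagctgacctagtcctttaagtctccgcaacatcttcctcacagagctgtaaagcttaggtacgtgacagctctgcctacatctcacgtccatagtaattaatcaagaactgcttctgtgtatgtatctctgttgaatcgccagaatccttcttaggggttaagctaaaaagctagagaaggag

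The 3 pocket protein genes did not move together. Rb1, the retinoblastoma protein gene, had 2233 counts (WT), 2656 (KO) and 2448 (rescue). WT was lowest, and the log2 ratio was 0.28 in KO against WT (interval 0.19 to 0.36), -0.11 in rescue against KO (-0.19 to -0.04) and 0.16 in rescue against WT (0.08 to 0.24). Its 3 transcript rows had ratios of 0.28 to 0.43 in KO against WT.

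Rbl1 encodes p107, the pocket protein typical of cycling cells, whose gene is itself a target of E2F. It had 394 counts (WT), 242 (KO) and 231 (rescue). WT was highest and the other libraries were level. The log2 ratio was -0.68 in KO against WT (interval -0.91 to -0.44), -0.06 in rescue against KO (-0.33 to 0.20) and -0.74 in rescue against WT (-0.98 to -0.50). Of its 3 rows, the shortest (transcript variant 2, 135, 106 and 109 counts) had a ratio of -0.32 in KO against WT, with an interval of -0.70 to 0.05 that includes 0. The Rbl1 window, at chr2:157204535-157204784 on the minus strand, holds 1 match to the E2F letters, TTCGCGC, 17 to 11 bases before the start, shown in capitals. Of the 10 windows of the 7 matched genes, this one and the upstream Cdkn2c window were the 2 with such a match.
Rbl1: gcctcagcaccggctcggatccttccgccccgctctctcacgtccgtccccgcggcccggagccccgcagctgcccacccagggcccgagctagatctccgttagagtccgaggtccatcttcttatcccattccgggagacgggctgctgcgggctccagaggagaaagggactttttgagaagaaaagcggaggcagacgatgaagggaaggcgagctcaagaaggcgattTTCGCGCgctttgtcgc

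Rbl2 encodes p130, the pocket protein of resting and differentiated cells and a part of the DREAM repressor complex. It had 800 counts (WT), 718 (KO) and 704 (rescue), and these values lay close together. The log2 ratio was -0.13 in KO against WT (interval -0.28 to 0.02), -0.03 in rescue against KO (-0.18 to 0.13) and -0.16 in rescue against WT (-0.30 to -0.01). Within each library the order per kilobase was Rb1, Rbl2, Rbl1. The level of Rb1 was 5.95 times that of Rbl1 in WT (interval 5.34 to 6.63), 11.5 times in KO (10.1 to 13.2) and 11.1 times in rescue (9.71 to 12.8). Rbl2 was 2.01 times Rbl1 in WT, 2.94 times in KO and 3.02 times in rescue. The intervals of KO and rescue overlapped for both ratios, and WT had relatively more Rbl1.

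Ccnd1 encodes cyclin D1, the mitogen-induced cyclin of dividing myoblasts, and it had 1696 counts (WT), 1000 (KO) and 945 (rescue). WT was highest, and KO and rescue could not be separated. The log2 ratio was -0.74 in KO against WT (interval -0.85 to -0.62), -0.08 in rescue against KO (-0.21 to 0.05) and -0.82 in rescue against WT (-0.93 to -0.70). The 3' part of Ccnd1 shares 1100 exon bases with the opposite-strand gene LTO1, which had 291, 206 and 207 counts in WT, KO and rescue. Without a stated strand setting, reads there cannot be assigned.

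Ccnd3 encodes cyclin D3, the D cyclin that is retained in differentiated muscle cells and bound there to pocket proteins and CDK inhibitors. It had 7095 counts (WT), 6016 (KO) and 6563 (rescue), a narrow range with WT highest. The log2 ratio was -0.21 in KO against WT (interval -0.26 to -0.16), 0.13 in rescue against KO (0.08 to 0.18) and -0.08 in rescue against WT (-0.13 to -0.04). With the length trend removed, KO against WT was -0.14 and rescue against KO 0.06. Ccnd2, the remaining D cyclin, went the other way, with 1195 counts (WT), 2200 (KO) and 1654 (rescue) and a log2 ratio of 0.91 in KO against WT (interval 0.80 to 1.01).

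The balance among the D cyclins therefore differed between libraries. Per kilobase, Ccnd3 was 7.31 times Ccnd1 in WT (interval 6.93 to 7.71), 10.5 times in KO (9.83 to 11.2) and 12.1 times in rescue (11.3 to 13.0). Ccnd2 was 0.413 times Ccnd1 in WT (0.383 to 0.445), 1.29 times in KO (1.20 to 1.39) and 1.03 times in rescue (0.947 to 1.11). Ccnd3 remained the most abundant D cyclin transcript in each library, at 17.7, 8.15 and 11.8 times Ccnd2 in WT, KO and rescue.

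**Figure D2:**
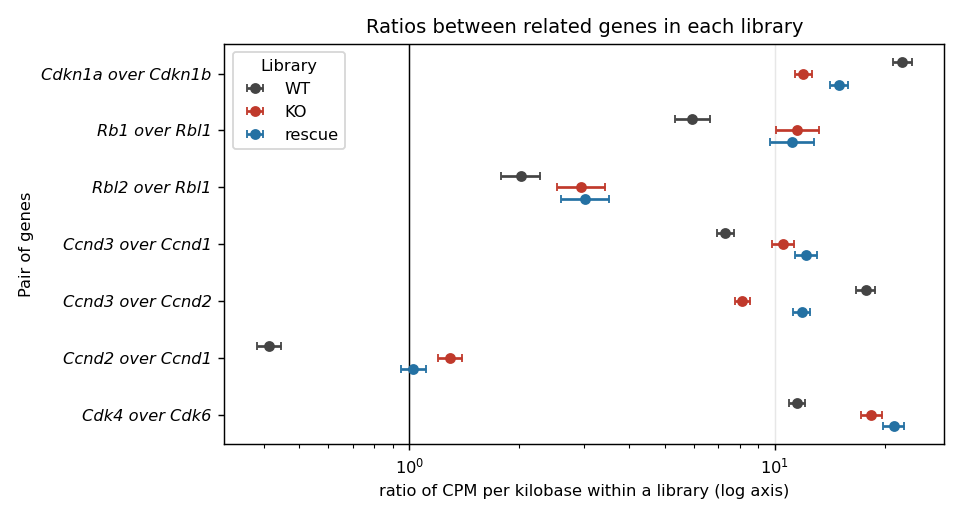
Ratio of the levels per kilobase of 2 related genes within each library, on a log axis, with 95% counting intervals and without removal of the length trend; the vertical line marks equal levels. For Rb1 over Rbl1, Ccnd2 over Ccnd1 and Cdk4 over Cdk6 the KO and rescue points lie to the right of WT, and for Cdkn1a over Cdkn1b they lie to its left.

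Cdk4 encodes the kinase partner of the D cyclins and had 3680 counts (WT), 2884 (KO) and 3094 (rescue). WT was highest, with a log2 ratio of -0.33 in KO against WT (interval -0.40 to -0.26) and -0.22 in rescue against WT (-0.29 to -0.15). With the length trend removed, KO against WT was -0.19, outside that interval, and rescue against WT was -0.22. Its small difference between rescue and KO, 0.10 (interval 0.03 to 0.18), had the opposite sign, -0.04, once the length trend was removed. Cdk4 shares 641 exon bases with the opposite-strand gene Tspan31, which had 1866, 1954 and 2049 counts in WT, KO and rescue. Cdk6, the related kinase, had 2707, 1329 and 1240 counts and a log2 ratio of -1.0007 in KO against WT (interval -1.10 to -0.91), at the edge of 2-fold. With the length trend removed this ratio was -1.20. Per kilobase Cdk4 was 11.5 times Cdk6 in WT, 18.4 times in KO and 21.1 times in rescue. These values were not corrected for transcript length trend. With the trend removed, rescue against KO was -0.04 for Cdk4 and 0.12 for Cdk6, so the rise from KO to rescue did not remain.

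The Cdk4 window, at chr10:127063285-127063534 on the plus strand, holds 4 copies of CACGTG, the form of the E-box CANNTG bound by Myc and related factors, which reads the same on both strands. They lie 172 to 167, 118 to 113, 98 to 93 and 11 to 6 bases before the start and are shown in capitals. At least 1 copy was present in 6.02% of all promoter windows.
Cdk4: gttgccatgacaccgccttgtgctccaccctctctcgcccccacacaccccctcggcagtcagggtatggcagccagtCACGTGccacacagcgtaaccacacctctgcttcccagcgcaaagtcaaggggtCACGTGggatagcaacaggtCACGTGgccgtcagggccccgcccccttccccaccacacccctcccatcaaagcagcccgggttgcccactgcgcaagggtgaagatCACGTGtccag

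In rescue against KO, 0 of the 9 genes were at least 2-fold different in either direction, beside 1.3% of 13381 genes higher and 0.575% lower, and 0 reached 1.5-fold, beside 3.81% and 2.77%. Among genes with 200 or more counts in the higher library the shares higher and lower were 0.289% and 0.0222% at 2-fold, and 1.07% and 0.389% at 1.5-fold. Cdkn2c and Cdkn1a had the highest ratios of the 9. The counting interval lay above 0 for Cdkn1a, Cdkn2c, Ccnd3 and Cdk4, below 0 for Rb1, and included 0 for Cdkn1b, Rbl1, Rbl2 and Ccnd1. In rescue against WT, 0 of the 9 reached 2-fold, beside 4.59% of genes higher and 3.06% lower. At 1.5-fold Cdkn2c, Ccnd1 and Rbl1 were lower, 3 of 9 beside 7.99%, and 0 were higher, beside 10.4%. With 200 or more counts the shares were 2.11% and 1.43% at 2-fold, and 5.91% and 4.87% at 1.5-fold. By log2 ratio, rescue lay nearer to WT than to KO for Ccnd3 only, and nearer to KO for the others. With the length trend removed Ccnd3 too lay nearer to KO, at 0.06 against KO and -0.08 against WT. For Rbl1, Rbl2 and Ccnd1 rescue lay beyond KO, within counting error of it. The medians of the 9 were -0.03 in rescue against KO and -0.22 in rescue against WT, beside 0.00 and 0.01 for all genes. These comparisons are not independent: 2 of them use the single WT library and 2 the single KO library.

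**Figure D3:**
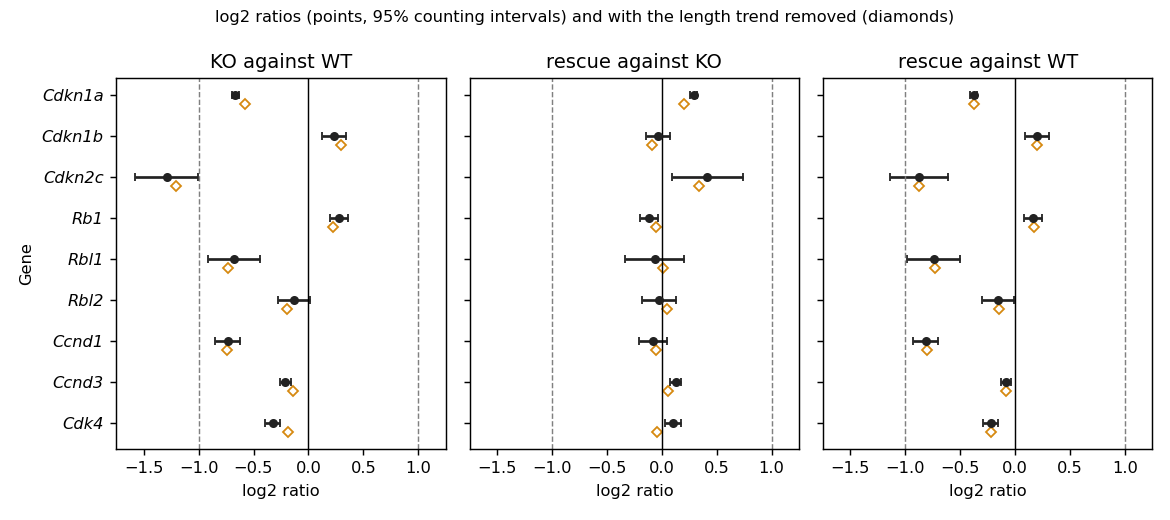
The log2 ratio of each of the 9 detected genes (black points with 95% counting intervals) in the 3 pairs of libraries, with open diamonds for the ratio after the transcript length trend was removed; dashed lines mark 2-fold. Cdkn2c in KO against WT, at -1.29, is the only point beyond a dashed line, and the rescue against KO points lie between -0.11 and 0.41.

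The genes that act beside and below these regulators were examined as lists. Their counts in KO against WT stand beside those over all 13381 genes, of which 5.35% were at least 2-fold higher and 4.07% lower, 12.1% at least 1.5-fold higher and 10.4% lower, and 50.1% lay above 0. Of 9 other G1 cyclin and CDK genes, 2 were at least 2-fold lower in KO than in WT and 0 higher, with a median log2 ratio of -0.20. The lower ones were Cdk6 and Ccne2, a cyclin E that drives entry into S phase, which had 204 counts (WT), 71 (KO) and 82 (rescue) (log2 ratio -1.49, interval -1.91 to -1.10). Ccne1, the other cyclin E gene, had 188, 183 and 145. Of 10 E2F and DP factor genes, 1 was at least 2-fold lower, E2f2, an activator of S phase genes, with 1578, 679 and 743 counts (-1.19, interval -1.32 to -1.06). E2f8 and E2f7, the atypical repressors of the family, had ratios of -0.79 and -0.68, and the list median was -0.30. Of 8 genes of the DREAM complex and its MuvB core, 0 were 2-fold different in KO. The largest difference there was that of Foxm1, the mitotic transcription factor that joins MuvB, with 760, 419 and 372 counts (-0.83, interval -1.01 to -0.66), and the list median was -0.17.

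The E2F target genes of S phase were lower in KO almost without exception. Of 30 genes, 29 lay below 0 and 1 above, 17 were at least 1.5-fold lower and 4 at least 2-fold lower, and the median log2 ratio was -0.63. The shares of all genes were 50.1% above 0, 10.4% at least 1.5-fold lower and 4.07% at least 2-fold lower. Rrm2, a subunit of ribonucleotide reductase, had 3081 counts (WT), 1303 (KO) and 1474 (rescue) (-1.22, interval -1.31 to -1.12). Orc1, Gins1 and Cdc6, which license and start replication origins, had ratios of -1.47, -1.42 and -1.05 at 60 to 186 counts in WT. The 28 mitotic genes had a median of -0.50, with 26 below 0, 2 above and 0 at 2-fold. Kif20a, a mitotic kinesin, and Cdc20, an activator of the anaphase complex, had ratios of -0.84 and -0.82. In rescue against WT the medians were -0.53 for the S phase genes, with 30 of 30 below 0, and -0.45 for the mitotic genes, while 51.0% of all genes lay above 0. In rescue against KO they were 0.08 and 0.07, and 0 genes of either list were 2-fold different. The summed level of the 30 S phase genes was 1363 CPM in WT, 872 in KO and 925 in rescue, and that of the 28 mitotic genes was 1440, 1082 and 1091.

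Of the 9 genes, 7 thus lay below 0 in KO against WT, the direction of the S phase and mitotic lists. Rb1 and Cdkn1b lay above 0, as did 50.1% of all genes. The 7 include the inhibitors Cdkn1a and Cdkn2c, and also Rbl2, whose interval includes 0. E2f2, Ccne2, Cdk6 and Cdkn2d were lower in KO too, and Ccnd2 was higher.

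**Figure D4:**
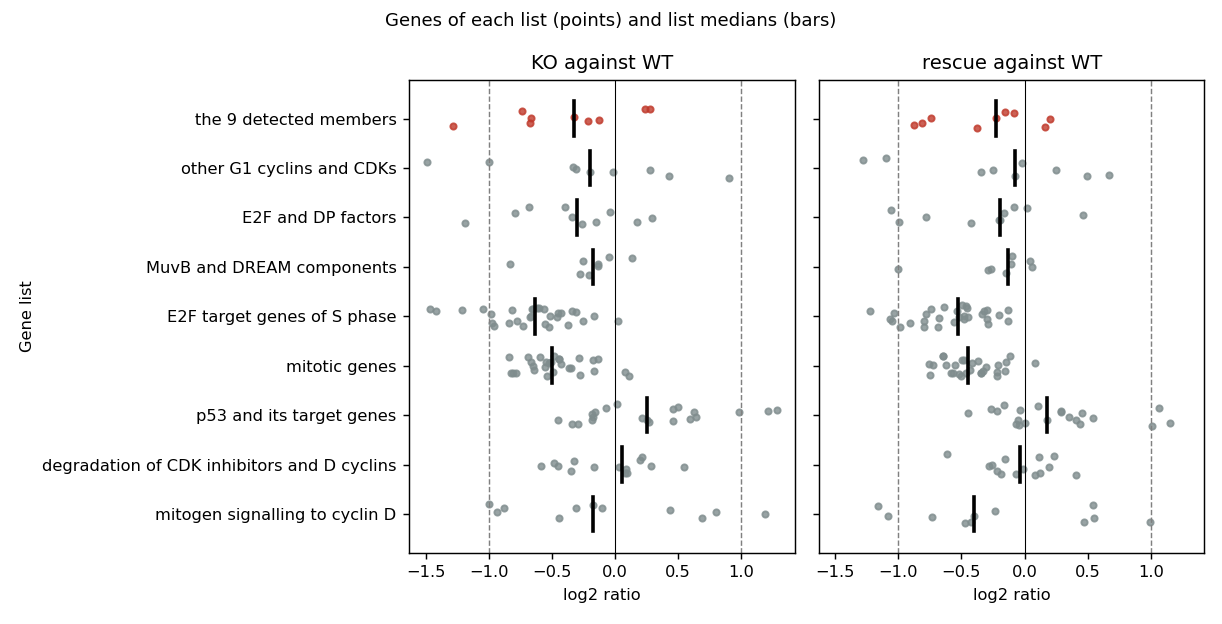
The log2 ratio of each gene with a mean of 1 CPM or more in 8 lists and in the set of 9 detected members (red), in KO against WT and rescue against WT; black bars are list medians and dashed lines mark 2-fold. The S phase and mitotic medians lie at -0.63 and -0.50 in KO against WT and at -0.53 and -0.45 in rescue against WT, and the p53 list lies on both sides of 0.

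The list of p53 and its target genes had 21 of 22 genes at 1 CPM or more, on both sides of 0. In KO against WT 13 lay above 0 and 8 below, with a median of 0.25, while 50.1% of all genes lay above 0. At 2-fold 2 were higher and 0 lower, beside 5.35% and 4.07% of all genes. At 1.5-fold 6 were higher and 0 lower, beside 12.1% and 10.4%, so the larger differences lay on the higher side. Sesn2, a stress-induced regulator of mTORC1, had 217 counts (WT), 521 (KO) and 428 (rescue) (log2 ratio 1.29, interval 1.06 to 1.52). Ddit4, another inhibitor of mTORC1, had 296, 674 and 647 (1.21, interval 1.01 to 1.41), and Gadd45a, a growth arrest gene, had 2328, 4523 and 4777 (0.98, interval 0.91 to 1.06). These 3 genes are also known targets of the ATF4 stress response. Cdkn1a, itself a p53 target, was lower in KO, at -0.67.

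Of 15 genes of the MyoD family and partners of Rb in muscle, 14 reached 1 CPM, 2 were at least 2-fold lower in KO and 0 higher, with a median of -0.02. Mef2c, a transcription factor that works with MyoD, had 1289 counts (WT), 305 (KO) and 530 (rescue) (log2 ratio -2.05, interval -2.24 to -1.87). Id2, an inhibitor of MyoD partners that also binds Rb, had 104, 39 and 43 (-1.38, interval -1.96 to -0.85). Id1, of the same family, had 70, 114 and 121 (0.73, interval 0.29 to 1.18).

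Of 14 genes of the degradation of CDK inhibitors and D cyclins, 0 were 2-fold different in KO, beside 5.35% of all genes higher and 4.07% lower. At 1.5-fold 0 were higher and 1 lower, beside 12.1% and 10.4%. Of the 14, 8 lay above 0 and 6 below, with a median of 0.05. Rbx1 and Skp1, core subunits of the SCF ubiquitin ligase that takes p27, had ratios of -0.59 and -0.45. With the length trend removed they were at -0.47 and -0.35, so Rbx1 fell short of 1.5-fold. Skp2 and Cks1b of the same list, named after their values were seen, had ratios of 0.08 and -0.16, with intervals that include 0. Fbxo31, an F-box protein for cyclin D1, had 241, 347 and 314 counts in WT, KO and rescue (log2 ratio 0.55, interval 0.31 to 0.79). Of 12 genes of mitogen signalling to cyclin D, 11 reached 1 CPM, 1 was at least 2-fold higher in KO and 0 lower, and the median was -0.18. The higher one was Lef1, a factor of the Wnt pathway, with 74, 166 and 145 counts (1.19, interval 0.79 to 1.61). The immediate early genes Fosl1, Fos and Egr1 had ratios of -0.9973, -0.94 and -0.88, so Fosl1 lay just short of 2-fold. They were the 3 genes of this list at least 1.5-fold lower, beside 10.4% of all genes. Another 3 were at least 1.5-fold higher, beside 12.1%, among them Lef1 and Myc. Myc, named after its values were seen, had a ratio of 0.69 (interval 0.55 to 0.84).

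Markers of cell states that the culture could hold are given beside these values, and their part in the results was not tested. Of 12 myotube markers, 2 (Ckm and Actn2, at -1.60 and -2.46) were at least 2-fold lower in KO than in WT and 0 higher, with 4 above 0, 8 below and a median of -0.26. Among the 4 above 0 were Myog, Myh3 and Acta1, named after their values were seen, at 0.47, 0.33 and 0.22. In rescue against KO, 11 of the 12 lay above 0, beside 50.3% of all genes. The median was 0.46, and 0.44 with the length trend removed. Of the 12, 5 were at least 1.5-fold higher, beside 3.81% of all genes. Ckm and Actn2, at 1.31 and 1.51, were at least 2-fold higher, beside 1.3%. Of 11 markers of undifferentiated myoblasts and reserve cells, 9 reached 1 CPM and 1, Heyl, a Notch target, was at least 2-fold lower (-3.25). The others went both ways, with 4 of the 9 above 0, 5 below and a median of -0.01. Spry1 and Id1 were at least 1.5-fold higher, at 0.84 and 0.73, and Myf5 was at least 1.5-fold lower, at -0.60. The summed level of this list was 525 CPM in WT, 448 in KO and 391 in rescue, and Chrdl2 was at 0 in every library. The markers given here and below as being at 0 were named after their values were seen. The 8 fibroblast markers summed to 1643 CPM in WT, 3115 in KO and 2626 in rescue. Col1a1 (5243, 18763 and 16217 counts) and Col1a2 (12496, 22136 and 17918) made up most of this sum in each library. Of the 8 markers, 6 reached 1 CPM, with 4 above 0 and 2 below in KO against WT. Col1a1, Pdgfra and Dpt were at least 2-fold higher in KO (1.86, 1.12 and 2.47, the last at 4 and 24 counts) and Dcn was lower (-1.51). Adipocyte markers summed to 11.3, 11.0 and 12.2 CPM in WT, KO and rescue, with Adipoq, Cidec and Lep at 0 in every library, and Pparg (159, 147 and 164 counts) made up nearly all of this sum. Osteoblast markers summed to 35.04, 49.3 and 36.8 CPM, with Ibsp and Alpl at 0 in every library. Runx2 (474, 677 and 503 counts) made up nearly all of that sum, and the other 5 osteoblast markers had 0 to 14 counts.

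Cdkn2c had the widest range of the 9 genes over the 3 libraries, 1.29 on the log2 scale, and the genes nearest to it in pattern were looked up among 10479 protein-coding genes. The measure was the Euclidean distance of the 3 centred log2 CPM values, so it rests on 3 libraries only. The nearest were Ormdl2, a regulator of sphingolipid synthesis, at a distance of 0.03 with 343, 140 and 181 counts in WT, KO and rescue, and H2ac24, a clustered histone H2A gene, at 0.05 with 155, 64 and 81. Slc25a10, the mitochondrial dicarboxylate carrier, at 0.05, and Tubb3, a neuronal beta tubulin, at 0.07, came next. In all, 11 genes lay within a distance of 0.1.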

How the data were processed

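Per the submitters' processing notes, reads were handled with cutadapt 1.9.1, HISAT2 2.2.1 and featureCounts 2.0.0 on the mouse build GRCm39. Per the labels, total RNA was isolated with TRIzol and prepared for sequencing with an MGI kit. No source used here gives the settings, strand included. The deposited count column holds raw whole-number read counts over 139023 transcript rows. The RPKM column deposited by the authors is the count scaled to transcript length and to the total of all rows. The TPM column deposited by the authors corrects the count for length and brings each library to 1 common sum, and it was used only as an alternative.

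Rows of 1 gene share reads, so the row with the highest count over the libraries stood for the gene. Library sizes were adjusted by TMM in edgeR 4.0.16 (R 4.3.3). Log2 ratios used 0.5 added to each count, with exact conditional (Clopper-Pearson) intervals. A level of 1 CPM or more on average was required, which 13381 genes reached. A count of 0 was taken to allow up to 3 counts. The ratio and interval code was tested on simulated data. DESeq2 1.42.0 size factors were an alternative. The length trend was a lowess fit in statsmodels 0.14.6 over protein-coding genes holding at least 100 counts over the 3 libraries.

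The 10 genes, the lists and the thresholds were chosen with earlier results of these data known. The genes named beyond the 10 are, per list, up to 4 with the largest absolute ratio in KO against WT and up to 2 in rescue against KO, and all of a list of 5 or fewer. Genes outside this rule are marked in the text. The rule for the nearest pattern takes the gene with the widest range, and Cdkn1c, below 1 CPM, was left out of it after its counts were seen. Genes whose exons overlap a gene on the other strand in GENCODE (Ccnd1, Ccnd3, Cdk4, Rb1, Rbl2, Cdkn1a and Cdkn1c) are uncertain to that extent.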

Additional observations from a re-analysis of the deposited data

How the results depend on the processing

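Under total-count scaling, DESeq2 size factors, the sum of all rows, 5 added to each count, the length trend removed and the deposited TPM, the number of the 9 genes at least 2-fold higher or lower was the same as given above in each comparison. With the threshold at 1.5-fold, an alternative chosen after seeing the data, 4 were lower in KO relative to WT, and 3 in rescue relative to WT. The count of 4 depended on the length trend: with it removed, Cdkn1a stood at -0.577 in KO against WT, short of 1.5-fold. Of the ratios of single genes, that of Cdk4 in rescue against KO changed sign to -0.0432, outside its counting interval, with the length trend removed, and 16 others moved outside their interval with the same sign. The cause was not tested. In rescue against KO, 3 ratios whose intervals include 0 also changed sign: Cdkn1b to 0.0135, Rbl1 to 0.0194 and Rbl2 to 0.0226 with the sum of rows, and Rbl1 to 0.0111 and Rbl2 to 0.0511 with the length trend removed. Without the filter on low counts, 3331 genes were higher and 3606 lower in KO than in WT, 2862 and 2412 in rescue against KO, and 3431 and 3292 in rescue against WT. Among genes with 200 or more counts in the higher library, chosen after seeing the data, these numbers were 271 and 178, 26 and 2, and 194 and 131. With 5 added to each count, 32 genes were at least 2-fold lower in rescue against KO, beside 77. No paired analysis was possible because each group has 1 library, and no replicate could be left out. Cdkn1c, with 1 count in all, gave no ratio under any setting, and the precision of Cdkn2c, Rbl1 and Ccne2 is limited by their low counts.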
